A study of Mus musculus with 75 samples.

Results

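The constitutive proteasome genes were followed in cultured mouse skin fibroblasts over serial passage and after manipulation of 3 transcription factors. Members were all genes in the count files whose symbol begins with Psma, Psmb, Psmc or Psmd followed by a number, with the immunoproteasome genes Psmb8, Psmb9 and Psmb10 left out. This gave 36 genes of 24984 in the table, namely 8 alpha-ring and 8 beta-ring genes of the 20S core, 6 ATPase genes, 3 scaffold and ubiquitin receptor genes and 8 lid genes of the 19S regulatory particle, and 3 genes for 19S assembly chaperones that carry Psmd symbols. The RNA-seq data comprised 44 libraries and the chromatin accessibility (ATAC-seq) data 13 samples.

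Untreated fibroblasts of C57BL/6 mice were sampled after 1, 3, 5 or 7 passages (hereafter P1 to P7), with 4 RNA-seq libraries each and, for ATAC-seq, 4 samples at P1 and 3 at each later passage. These cells came from 2-month-old female mice. The manipulated groups were skin fibroblasts of 2-month-old or newborn C57BL/6 mice, and which group came from which is not given in the sources used here. The study reports pre-senescent cells at P4 for E2f4 overexpression and proliferating cells at P3 for E2f4 knockdown. For Atf3 knockdown it reports pre-senescent cells. E2f4 overexpression (E2f4 OE, n = 2) was driven by doxycycline from a lentiviral vector and was set against cells carrying the vector with EGFP (n = 2). Knockdown used lentiviral short hairpins, namely sh1 against E2f4 (n = 3), sh3 and sh4 against Tead1 (n = 3 each) and sh5 and sh6 against Atf3 (n = 3 each), and each target had its own control group, labelled nt (n = 3). Both Tead1 hairpins were compared with the same nt libraries, as were both Atf3 hairpins, and the comparisons with P1 or with P3 also shared libraries. The labels do not say whether replicates were separate cultures, so p-values measure only the spread between these samples, which may be technical.

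The proteasome degrades proteins tagged with ubiquitin. Its 20S core is a stack of alpha and beta rings, with the catalytic sites on beta subunits inside the barrel, and the 19S particle at its ends binds the ubiquitin chain, removes it, unfolds the substrate and feeds it in. Subunit genes are known to be transcribed together when proteasome activity is impaired, through the factor encoded by Nfe2l1, and decline of the proteasome is a recognised feature of aging and senescent cells.

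The libraries held between 9147324 and 27552949 counts assigned to genes. The unit of level here is the CPM, a gene's count relative to the total of its library, after TMM scaling, a correction for library composition made separately within each experiment, so levels are comparable only within the passage series or within one manipulation. Differences are log2 fold changes ± SE from edgeR's quasi-likelihood test, adjusted by the Benjamini-Hochberg method over all genes tested, and a gene is said to have risen or fallen only where this adjusted p was under 0.05. Of the targeted genes, E2f4 rose by 4.795 ± 0.152 in E2f4 OE and fell by 1.497 ± 0.089 in sh1, and Tead1 fell by 0.96 ± 0.04 with sh3 and by 0.78 ± 0.04 with sh4. Atf3 fell in sh5 (-1.14 ± 0.39, adjusted p = 0.0447), whereas in sh6 it measured -0.79 ± 0.39 with an adjusted p of 0.114. The sh6 libraries held 1.51, 1.56 and 2.09 CPM of Atf3 against 2.77 to 3.31 in nt, without overlap. In the passage series the senescence gene Cdkn2a rose by 4.79 ± 0.26 from P1 to P7 and the proliferation marker Mki67 fell by 3.96 on the log2 scale.

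Of the 36 genes, 34 passed the filter on low counts in every experiment. Psma8, a testis form of an alpha subunit, had 0 to 12 counts per library, and Psmb11, the thymus-specific catalytic subunit, had 0 to 4. At P1 the 34 genes differed in level per kilobase of exon, with Psmb4 at 149.2 CPM per kb, Psmd8 at 147.2, Psmb3 at 125.7, Psmb1 at 125.0 and Psmb7 at 119.6 at the upper end. The catalytic genes Psmb6 (69.3 CPM per kb) and Psmb5 (52.3 CPM per kb) ranked below Psmb7. The lowest per length were the chaperone genes Psmd10 (14.6 CPM per kb) and Psmd9 (12.8 CPM per kb). The annotated spans of Psma3, Psma4, Psma6, Psmb5, Psmb7, Psmc5, Psmd1, Psmd10 and Psmd13 overlap those of other genes. Counting without strand cannot separate reads from stretches that such genes share, and overlap of exons was not examined.

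Over the passage series the summed level of all members was 3998 to 4209 CPM at P1, 4082 to 4209 at P3, 4060 to 4388 at P5, and at P7 the 4 libraries held 4983, 4425, 4029 and 3802 CPM in replicates 1 to 4. The P7 range therefore enclosed the other passages. As a share of all counts assigned to genes, members took 0.435 to 0.455% at P1, 0.403 to 0.424% at P3, 0.396 to 0.432% at P5 and 0.360 to 0.471% at P7, the highest of these being P7 replicate 1.

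**Figure D1:**
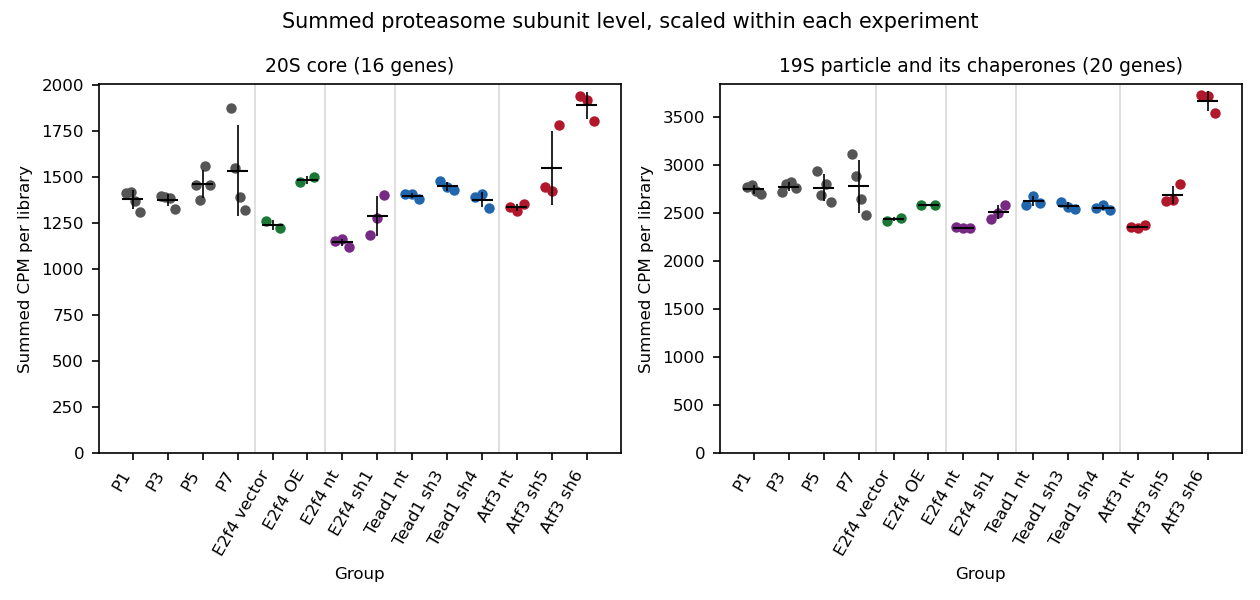
Summed CPM of the 16 genes of the 20S core (left) and the 20 genes of the 19S particle and its chaperones (right) in each of 44 RNA-seq libraries (points), by group, with the mean ± SD (bars). CPM were scaled within each experiment, marked off by grey lines, and the 3 Atf3 sh6 libraries lie above every nt library in both panels.

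From P1 to P7 the members that rose were Psma2, Psma7, Psmb1, Psmb3, Psmb5, Psmd8 and Psmd10, and those that fell were Psma1, Psmd1 and Psmd3. These were 7 rising and 3 falling of 34 tested, against 30.5% of all 13442 genes tested rising and 31.9% falling. The median member changed by 0.02 on the log2 scale, beside -0.01 over all genes. Compared with P3, again 7 members rose and 3 fell, where 24.8% of all genes rose and 26.5% fell, and the median was 0.06 beside -0.01. A change of more than 2-fold was found in 0 members in either comparison, where 21.4% of all genes passed this second criterion from P1 to P7 and 11.9% from P3 to P7. From P1 to P3, 2 rose (Psmb1 and Psmd8) and 0 fell, where 33.4% of all genes changed. Fitted on the P1 and P3 libraries alone, 4 rose and 7 fell, where 5750 of all 13072 genes were called. DESeq2 gave 2 rising and 2 falling, where 4743 of 13442 genes were called. The rise of Psmb1 was lost after removing the trend of each library with the GC content of a gene's exons (0.17, adjusted p = 0.148). From P3 to P5, 2 rose (Psmb5 and Psmd10) and 2 fell (Psma1 and Psmc6), where 13.4% rose and 15.3% fell. Removing the GC trend left the rise of Psmd10 (0.64), while Psmd3 then fell (-0.26, adjusted p = 0.0196). The calls of Psmb5 (0.23, adjusted p = 0.172), Psma1 (-0.05, adjusted p = 0.706) and Psmc6 (-0.09, adjusted p = 0.454) were lost. From P5 to P7 edgeR called 0 members and DESeq2 0, with 0 under an unadjusted p of 0.05, while 16.8% of all genes changed.

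**Figure D2:**
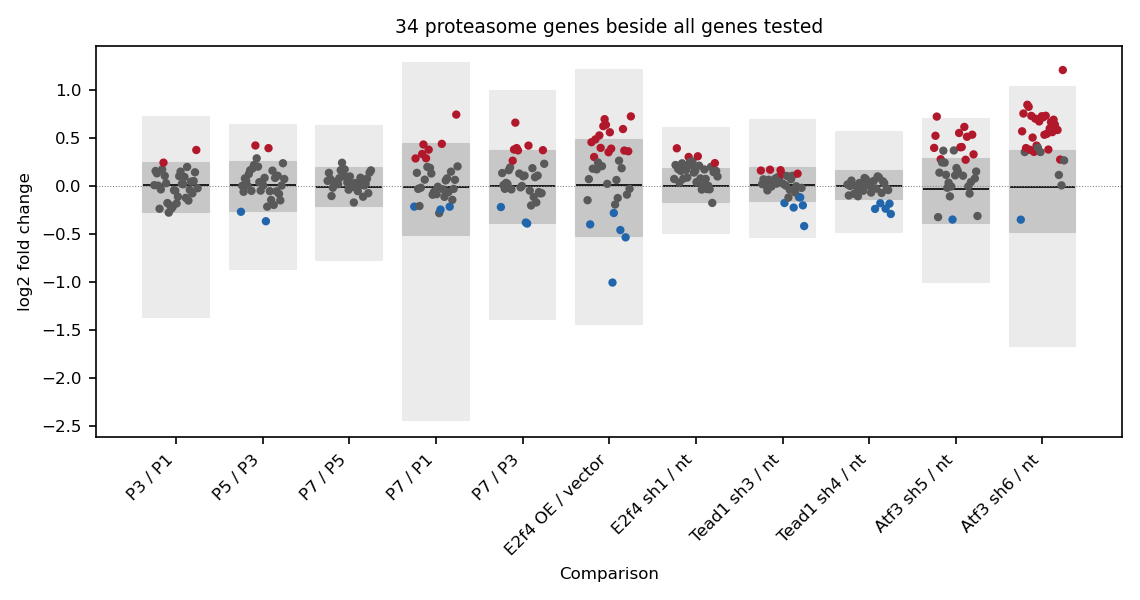
The log2 fold change of each of 34 members (points) in 11 comparisons, beside the middle 50% (dark band), the middle 90% (light band) and the median (line) of all genes tested, with red points for genes that rose and blue points for genes that fell (adjusted p under 0.05, edgeR). Most members lay inside the middle 50% of all genes in the passage comparisons, and 27 of 34 rose in Atf3 sh6.

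Within the beta ring, 5 of 7 tested genes rose from P3 to P7 (Psmb3, Psmb4, Psmb5, Psmb6 and Psmb7), and 3 of 7 rose from P1 to P7 (Psmb1, Psmb3 and Psmb5). None of the 7 fell in either comparison. With the GC trend removed, Psmb3 (0.14, adjusted p = 0.189) and Psmb4 (0.24, adjusted p = 0.0966) no longer passed from P3 to P7, while Psmb1 then rose (0.28, adjusted p = 0.0109). Psmb5 encodes the subunit with the chymotrypsin-like site, the main target of proteasome inhibitor drugs. Its level was 50.3, 47.2, 43.4 and 41.2 CPM at P1, 38.3, 40.7, 36.5 and 34.2 at P3, 39.3, 40.5, 62.2 and 58.0 at P5 and 74.8, 62.4, 49.6 and 49.1 at P7. All P7 libraries stood above all P3 libraries, 2 of the P7 libraries overlapped P1, and P5 was split, with replicates 1 and 2 near P3 and replicates 3 and 4 near P7. Levels followed exonic GC content in opposite directions in these libraries, with Spearman correlations of -0.08 and -0.29 across 13421 genes in P5 replicates 1 and 2 and of 0.42 and 0.47 in replicates 3 and 4, and between -0.53 and -0.10 at P3 and 0.07 and 0.36 at P7. The Psmb5 difference was 0.66 ± 0.15 from P3 to P7 (adjusted p = 0.00124) and 0.37 ± 0.15 from P1 to P7 (adjusted p = 0.0342). Without P7 replicate 1 the latter was 0.24 with an adjusted p of 0.156, and it was also lost without P7 replicate 2, P1 replicate 3 or P1 replicate 4.

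Psmb6 encodes the caspase-like catalytic subunit and Psmb7 the trypsin-like one. Psmb6 measured 79.7, 79.8, 73.8 and 68.5 CPM at P1, 71.4, 64.3, 66.2 and 59.7 at P3, 71.1, 69.1, 87.2 and 91.2 at P5 and 109, 87.0, 81.4 and 65.6 at P7. Psmb7 measured 131, 128, 127 and 119 CPM at P1, 125, 98.6, 106 and 97.8 at P3, 112, 102, 143 and 133 at P5 and 174, 138, 127 and 113 at P7. For both genes P7 replicate 1 was the highest of the 16 libraries, and P7 overlapped P3 and P1. Psmb6 rose by 0.39 ± 0.13 and Psmb7 by 0.37 ± 0.12 from P3 to P7, and neither passed the test against P1 (0.18 ± 0.12 and 0.13 ± 0.12). Without P7 replicate 1 the rise from P3 no longer passed for Psmb6 (0.25, adjusted p = 0.0707) or Psmb7 (0.23, adjusted p = 0.0937), and the count of members in this comparison turned from 7 rising and 3 falling to 3 rising and 7 falling.

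In the alpha ring, which gates the channel into the core, 2 of 7 tested genes rose from P1 to P7, Psma2 by 0.28 ± 0.09 and Psma7 by 0.33 ± 0.09. Psma1 fell by 0.22 on the log2 scale both from P1 and from P3 to P7, and with the GC trend removed neither passed (-0.09, adjusted p = 0.378, and 0.02, adjusted p = 0.849). After this correction Psma3 rose to P7 from P1 (0.37) and from P3 (0.38), and Psma2 also rose from P3 (0.35). Psma5 then fell from P1 to P7 (-0.25, adjusted p = 0.0215). None of the 6 ATPase genes, whose products form the ring that unfolds substrates, passed the test from P1 to P7. Psmc6, one of them, held 118, 144, 150 and 148 CPM at P3 and 134, 81.2, 111 and 102 at P7, and the groups overlapped through P7 replicate 1 and P3 replicate 1. Psmc6 fell from P3 to P7 (-0.38 ± 0.13, adjusted p = 0.0185), and this call was lost after removing the trend with exonic GC content from each library (-0.08, adjusted p = 0.465).

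In the base of the 19S particle the scaffold gene Psmd1 fell. Psmd1 measured 235, 240, 242 and 232 CPM at P1, 238, 276, 267 and 269 at P3, 268, 254, 204 and 176 at P5, and 202, 200, 205 and 190 at P7. All P7 libraries were below all P1 and P3 libraries. The difference was -0.40 ± 0.10 from P3 (adjusted p = 0.0034) and -0.25 ± 0.10 from P1 (adjusted p = 0.04). The latter passed narrowly, with an adjusted p between 0.0508 and 0.0923 without any single one of 10 of the 16 libraries.

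The lid gene Psmd8 showed the largest difference of any member from P1 to P7. Its level was 225, 230, 196 and 241 CPM at P1, 278, 287, 294 and 294 at P3, 345, 307, 355 and 348 at P5, and 426, 420, 335 and 306 at P7. No library of P3, P5 or P7 came down to the P1 range. Psmd8 rose by 0.37 ± 0.10 from P1 to P3 (adjusted p = 0.00735) and by 0.74 ± 0.10 from P1 to P7 (adjusted p = 2.76e-06), or 1.67-fold. Psmd3, another lid gene, fell slightly from P1 to P7 (-0.22 ± 0.08, adjusted p = 0.0194), with 173, 170, 164 and 163 CPM at P1 and 154, 157, 135 and 129 at P7, which did not overlap. With the GC trend removed Psmd3 also fell from P3 to P7 (-0.43, adjusted p = 0.000139). Psmd14, the deubiquitinase that removes the ubiquitin chain, measured 108, 105, 105 and 101 CPM at P1, 115, 126, 118 and 120 at P3, 118, 102, 107 and 90.5 at P5 and 129, 102, 109 and 101 at P7. Its P1 and P7 libraries overlapped, and it passed the test in none of the comparisons between passages (0.08 ± 0.09 from P1 to P7, and 0.20 with an adjusted p of 0.0377 once the GC trend was removed).

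Among the chaperones that assemble the 19S base, Psmd10 (gankyrin) rose. It held 19.2, 21.8, 22.7 and 21.5 CPM at P1, 20.6, 22.5, 22.8 and 20.3 at P3, 31.5, 28.9, 27.7 and 24.9 at P5 and 34.7, 27.2, 29.5 and 23.7 at P7. Every P5 and P7 library was above every P1 and P3 library. The rise was 0.43 ± 0.11 from P1 (adjusted p = 0.00215) and 0.42 ± 0.11 from P3 (adjusted p = 0.00421). The span of Psmd10 overlaps that of Atg4a in the annotation, so reads from any stretch the pair shares cannot be told apart.

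Markers of other cell types fell over the same passages. The summed level of 8 macrophage markers was 296 to 454 CPM at P1 and 35.4 to 52.7 at P7, with 0 of 8 at 0 in either group, and 7 of 8 fell. The 6 keratinocyte markers summed to 55.5 to 356 CPM at P1 and 4.73 to 7.72 at P7, where Krt14 and Krt1 were at 0, and 4 of 5 tested fell. The 4 endothelial markers went from 124 to 133 CPM to 6.18 to 8.49, all 4 falling, and the 6 skeletal muscle markers from 137 to 211 CPM to 39.1 to 110, with Ckm and Myog at 0 at P7 and 4 of 5 tested falling. Their part in the P1 comparisons was not tested, and in bulk RNA fewer cells of a type and less RNA per cell cannot be told apart. The 7 fibroblast markers were all present, summing to 17720 to 19970 CPM at P1 and 30490 to 32690 at P7, and 4 of 7 rose while 3 fell.

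**Figure D3:**
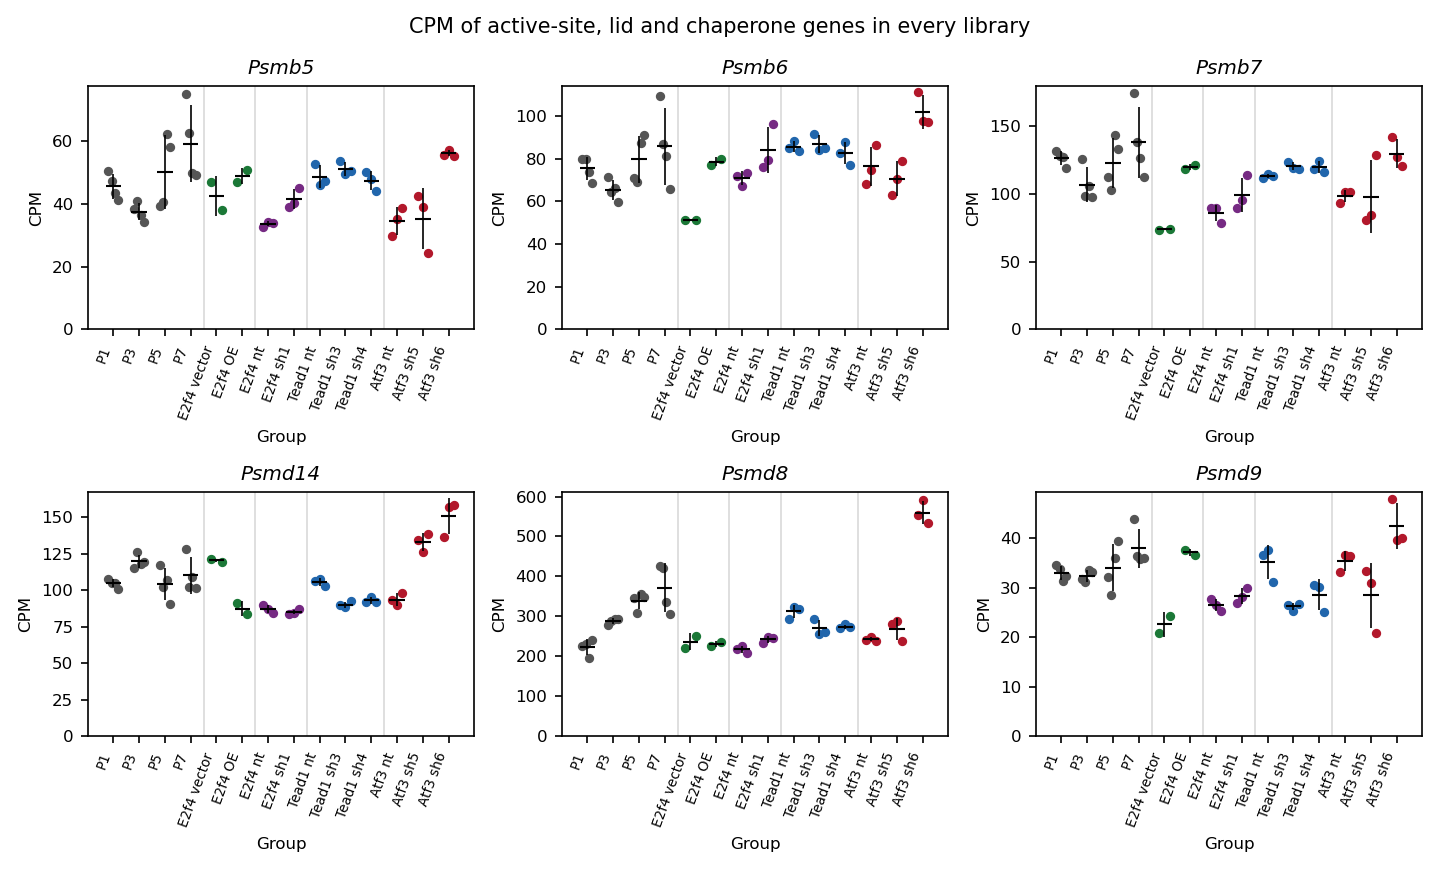
CPM of 6 member genes in every RNA-seq library, by group (points), with the mean ± SD (bars), the passage series on the left of each panel, and CPM scaled within each experiment. Psmd8 rises from 196 to 241 CPM at P1 to 306 to 426 at P7 and stands at 535 to 590 CPM in Atf3 sh6.

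Under E2f4 overexpression members moved in both directions. E2F4 is a mostly repressive member of the E2F family of cell cycle factors. Of 34 members, 15 rose and 5 fell, where 28.9% of all 13199 genes rose and 28.2% fell, and the median was 0.22 beside 0.01 over all genes. Summed over members, the level was 4051 and 4078 CPM in E2f4 OE and 3665 and 3677 in the vector control. The rises included 4 of 7 beta-ring genes (Psmb3, Psmb4, Psmb6 and Psmb7), 4 of 6 ATPase genes (Psmc1, Psmc3, Psmc4 and Psmc5) and 3 of 7 alpha-ring genes (Psma4, Psma6 and Psma7). Psmc6, Psmd5, Psmd14, Psma3 and Psmd1 fell.

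Psmb7 measured 118 and 121 CPM in E2f4 OE against 73.7 and 74.4 in the control, a rise of 0.69 ± 0.11 (adjusted p = 0.000295). Psmd9, a chaperone of the 19S base, measured 37.6 and 36.6 CPM against 20.8 and 24.4, a rise of 0.72 ± 0.13 (adjusted p = 0.000907). Psmb6 measured 77.2 and 80.0 CPM against 51.0 and 51.3, a rise of 0.62 ± 0.11. The groups did not overlap for any of these genes. Psmb5 held 47.0 and 50.6 CPM against 46.8 and 37.9 and did not pass the test (0.20 ± 0.13).

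Psmc6 was the 1 member that changed by more than 2-fold, where 18.1% of all genes did, with 81.8 and 66 CPM in E2f4 OE against 145 and 153 in the control (-1.01 ± 0.12, adjusted p = 8.63e-05). Psmd5, a base chaperone, held 75.6 and 74.3 CPM against 116 and 102 (-0.54 ± 0.11, adjusted p = 0.00212). Psmd14 held 91.1 and 83.6 CPM against 121 and 120 (-0.46 ± 0.11, adjusted p = 0.0038). In all 3 both overexpressing libraries lay below both controls.

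Base composition moved with this comparison. The log2 fold change followed the GC content of a gene's exons, with a Spearman correlation of 0.56 across 13173 genes and 0.67 across the 34 members, which share their 4 libraries. The exonic GC content of the 5 members that fell was 40.3% for Psma3, 41.7% for Psmc6, 43.2% for Psmd14, 46.4% for Psmd1 and 46.8% for Psmd5. With the GC trend of each library removed, 15 members rose and 3 fell, but they were partly other members. In that fit 6845 of all 13173 genes were called in either direction. The rises of Psma7 (-0.03), Psmb4 (0.09), Psmc3 (-0.01), Psmd3 (0.08) and Psmd4 (0.02) and the fall of Psmd1 (-0.07) were lost. Psma1 (0.34), Psma2 (0.50), Psmb1 (0.29) and Psmd10 (0.37) then rose, and Psmd8 (-0.30) then fell. Psmb7 (0.78), Psmd9 (0.50) and Psmb6 (0.45) were still higher, Psmc6 (-0.37) and Psmd5 (-0.36) were still lower, Psmd14 came to 0.0347 with an adjusted p of 0.732, and Psma3 turned from -0.40 ± 0.11 to a rise of 0.39. Skeletal muscle markers summed to 22.9 to 24.2 CPM in E2f4 OE and 66.3 to 76.4 in the control, with 1 of the 2 tested falling and with Myh3, Ckm and Myog at 0 in both, and their part in the result was not tested.

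E2f4 knockdown with sh1 changed few members, and those that changed rose. In sh1, 4 of 34 rose (Psma3, Psmb5, Psmc5 and Psmd7) and 0 fell, where 17.8% of all 12310 genes changed, and DESeq2 called 3 rising and 0 falling. At an unadjusted p under 0.05 there were 17, and the share of all genes at that threshold is not given here. By more than 2-fold 0 members changed, where 1.67% of all genes did. The median was 0.15 beside -0.01 over all genes. The summed level was 3618 to 3980 CPM in sh1 and 3459 to 3502 in nt, without overlap.

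Psma3, an alpha-ring gene, held 70.3, 77.7 and 98 CPM in sh1 against 62.5, 62.2 and 63 in nt (0.39 ± 0.10, adjusted p = 0.0179). Psmc5, an ATPase, held 111, 108 and 134 CPM against 95.5, 97.4 and 93 (0.31 ± 0.08), Psmb5 held 38.9, 40.2 and 45 against 32.6, 34.2 and 34 (0.30 ± 0.09) and the lid gene Psmd7 held 129, 131 and 151 against 121, 117 and 111 (0.23 ± 0.07), with adjusted p from 0.0191 to 0.0405. The groups did not overlap for any of the 4, and sh1 replicate 3 was the highest library for each. These calls were fragile, since 0 members passed without any one of the nt libraries and 12 passed without sh1 replicate 1. Skeletal muscle markers summed to 112 to 136 CPM in sh1 and 74.4 to 76.7 in nt (1 of 2 tested rose, with Myog at 0 in both). Macrophage markers summed to 17.5 to 21.1 CPM in sh1 and 9.16 to 13.1 in nt, with none at 0, and 2 of 4 tested rose (Lyz2 and Csf1r). Fibroblast markers summed to 23120 to 25560 CPM in sh1 and 30300 to 31260 in nt, with 2 of 7 rising and 3 falling, and the part of these markers in the result was not tested. Psmb6 (76.2, 79.4 and 96.4 CPM against 71.8, 67.3 and 73.5), Psmb7 (89.6, 95.1 and 114 against 89.2, 89.4 and 78.8) and Psmd14 (83.8, 84.4 and 86.9 against 89.8, 87.3 and 84.4) did not pass.

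In the Tead1 knockdown members changed in both directions with sh3 and, with sh4, only downwards. TEAD1 is the DNA-binding partner of the Hippo pathway coactivators YAP and TAZ. With sh3, 5 of 34 rose and 5 fell, where 17.6% of all 13012 genes rose and 17.7% fell. With sh4, 0 rose and 5 fell, where 14.4% rose and 14.7% fell. The medians were 0.02 and -0.02, and the summed level overlapped between sh3 (3970 to 4090 CPM), sh4 (3861 to 3991) and nt (3982 to 4087).

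A change of more than 2-fold was found in 0 members with either hairpin, where 2.71% of all genes changed so with sh3 and 1.53% with sh4. The chaperone gene Psmd9 measured 26.6, 25.3 and 26.8 CPM with sh3, 30.6, 30.2 and 25 with sh4 and 36.6, 37.7 and 31.2 in nt. Psmd14 measured 89.8, 88.3 and 92.4 CPM with sh3, 91.7, 95.6 and 91.8 with sh4 and 107, 108 and 103 in nt. Neither hairpin overlapped nt for this pair of genes. Psmd9 fell by 0.42 ± 0.08 with sh3 and by 0.30 ± 0.08 with sh4, and Psmd14 fell by 0.23 ± 0.05 with sh3 and by 0.18 ± 0.05 with sh4 (adjusted p from 0.00011 to 0.00529 over the 4 differences). The lid gene Psmd8 also fell with both hairpins (-0.19 with sh4). It measured 294.2, 256.5 and 261.6 CPM with sh3, 270.3, 279.7 and 272.0 with sh4 and 293.8, 323.1 and 319.4 in nt. For Psmd8 the sh3 range overlapped nt and the sh4 range did not.

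All 3 chaperone genes fell with sh4, Psmd10 with 15.3, 17.4 and 15 CPM against 19.4, 18.5 and 18.6 in nt (-0.24 ± 0.09) and Psmd5 by 0.24 on the log2 scale. With sh3 the 5 genes that rose were Psma1, Psmb1, Psmc2, Psmc3 and Psmd4. Psmb1 held 151, 158 and 143 CPM with sh3 against 133, 135 and 135 in nt and 131, 142 and 127 with sh4 (0.17 ± 0.05 for sh3 against nt), and Psmc2 held 136, 139 and 134 CPM with sh3 against 121, 128 and 118 in nt (0.16 ± 0.05). In both genes the sh3 libraries stood above all nt libraries. The catalytic genes passed in neither hairpin. Psmb5 measured 53.6, 49.4 and 50.2 CPM with sh3, 49.9, 47.8 and 43.9 with sh4 and 52.6, 46.0 and 47.1 in nt. Psmb6 measured 91.6, 84.2 and 84.8 with sh3, 82.7, 87.6 and 77.2 with sh4 and 84.8, 88.4 and 83.7 in nt. Psmb7 measured 124, 119 and 119 with sh3, 118, 124 and 116 with sh4 and 112, 115 and 113 in nt, which lay below both hairpins. Set directly against each other, sh4 was lower than sh3 in 2 members (Psma7 and Psmb1) and higher in 0, where 4.03% of all genes were lower and 3.34% higher. Skeletal muscle markers summed to 64.9 to 74.7 CPM with sh3, 73.1 to 83.5 with sh4 and 98.4 to 99.6 in nt, with Myog at 0 in each, and 2 of 2 tested fell with sh3 and 1 of 2 with sh4. Macrophage markers summed to 9.76 to 11.6 CPM with sh3, 10.4 to 14.2 with sh4 and 11.7 to 13.3 in nt, with none at 0, and 2 of 5 tested fell with sh3 and 0 with sh4. Fibroblast markers summed to 26370 to 27200 CPM with sh3, 24970 to 25810 with sh4 and 27230 to 28290 in nt. Of the 7 fibroblast markers, 4 rose and 2 fell with sh3, and 2 rose and 2 fell with sh4. The part of these markers in the Tead1 result was not tested.

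More members rose with Atf3 sh6 than in any other comparison of a group with its own control. ATF3 is a stress-induced factor of the ATF and AP-1 family. With sh6, 27 of 34 members rose and 1 fell, where 23.8% of all 13345 genes rose and 26.0% fell, and the median was 0.56 beside -0.02 over all genes. With sh5, 12 rose and 1 fell, where 17.7% rose and 18.1% fell, and the median was 0.17 beside -0.03. By more than 2-fold 1 member rose with sh6, where 15.7% of all genes changed so, and 0 changed with sh5, where 5.20% did. The summed level was 5345 to 5659 CPM with sh6, 4052 to 4574 with sh5 and 3655 to 3725 in nt, so that the 3 groups did not overlap.

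The rise with sh6 covered every role. It took in 5 of 7 alpha-ring genes, 6 of 7 beta-ring genes, 5 of 6 ATPase genes, all 3 scaffold and receptor genes, 7 of 8 lid genes and 1 of 3 chaperone genes (Psmd10), with Psma1 the single gene that fell. With sh5 the 12 that rose were 4 alpha-ring genes (Psma1, Psma2, Psma3 and Psma6), the ATPase Psmc6, the scaffold Psmd1, 4 lid genes (Psmd6, Psmd12, Psmd13 and Psmd14) and 2 chaperone genes (Psmd5 and Psmd10). None of the 7 beta-ring genes rose with sh5, and Psmc1 fell.

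**Figure D4:**
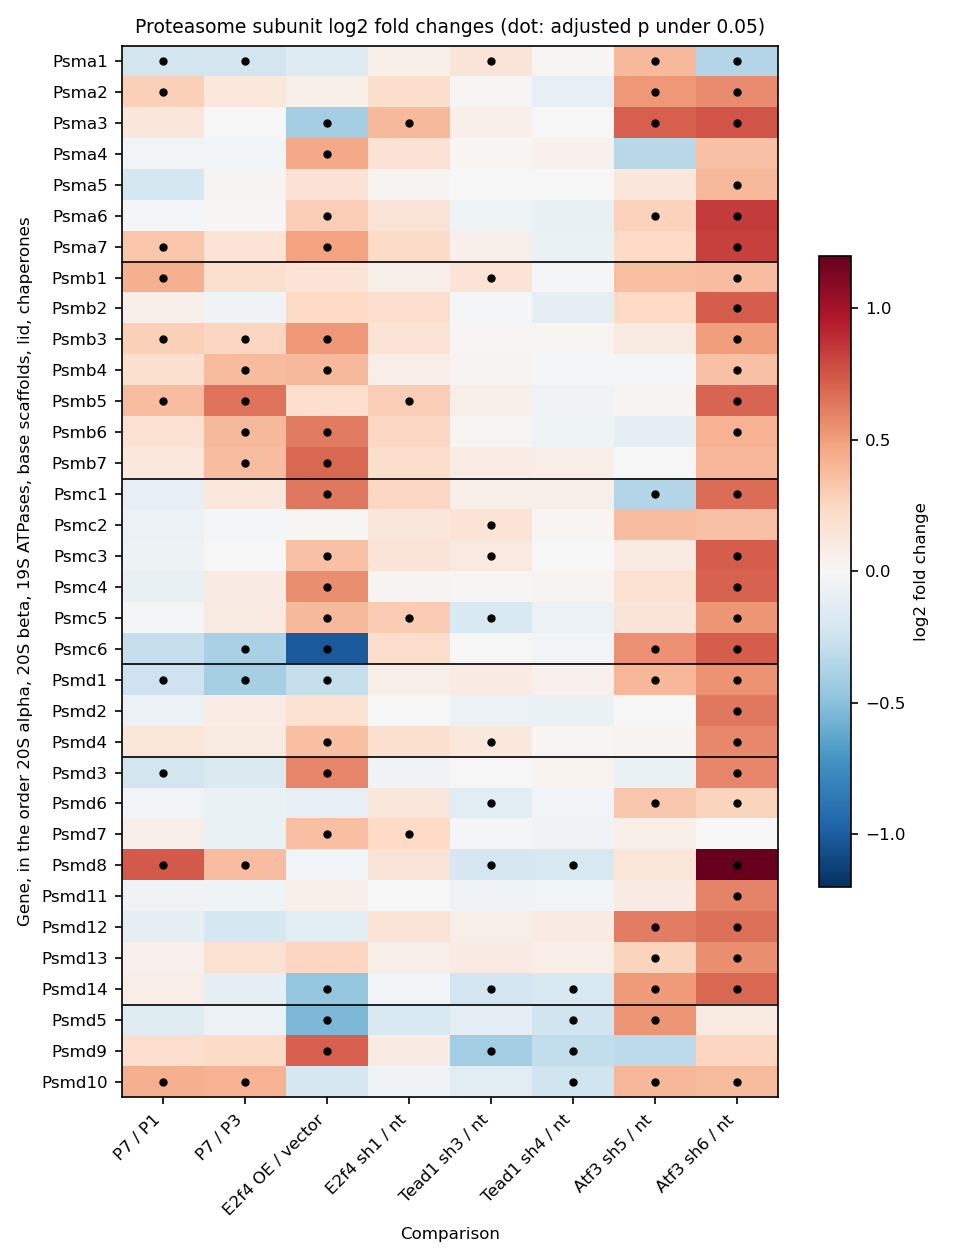
Log2 fold change of 34 member genes (rows, grouped by role) in 8 comparisons (columns), with red for higher and blue for lower in the group named first, and a black dot where the adjusted p was under 0.05 (edgeR). The Atf3 sh6 column is red in every role, with 27 genes rising, and Psma1 is its single gene that fell.

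Psmd8 rose with sh6 to 553, 590 and 535 CPM from 241, 249 and 238 in nt (1.204 ± 0.083, adjusted p = 1.54e-06), whereas sh5 gave 280, 289 and 238 CPM, which overlapped nt at its lower end. Psma6, an alpha-ring gene, rose to 157, 164 and 155 CPM from 94.2, 85.0 and 86.4 (0.84 ± 0.07, adjusted p = 4.94e-06), and sh5 gave 108, 104 and 109 (0.27 ± 0.07). Psma1 was lower with sh6, at 69.8, 76.0 and 71.5 CPM against 98.6, 85.8 and 93.4 in nt, and higher with sh5, at 123, 120 and 122. The 3 groups did not overlap for Psma6 or Psma1, and for Psma1 the hairpins moved in opposite directions from nt (-0.35 ± 0.07 with sh6, 0.39 ± 0.07 with sh5). With the GC trend removed the difference of sh5 from nt was 0.11 (adjusted p = 0.314), so the opposite direction rests on a call that this correction ended.

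Psmb5 measured 55.5, 57.0 and 55.2 CPM with sh6, 42.5, 38.8 and 24.3 with sh5 and 29.7, 35.2 and 38.6 in nt. Psmb6 measured 111, 97.8 and 97.1 CPM with sh6, 62.8, 70.3 and 78.9 with sh5 and 68.2, 74.5 and 86.4 in nt. Psmb7 measured 142, 127 and 120 CPM with sh6, 81.0, 84.3 and 129 with sh5 and 93.6, 101 and 101 in nt. For all 3 catalytic genes sh6 stood above nt without overlap, while sh5 overlapped nt. Psmb5 (0.70 ± 0.18, adjusted p = 0.00795) and Psmb6 (0.42 ± 0.11, adjusted p = 0.0107) rose with sh6, and Psmb7 (0.40 ± 0.16) had an adjusted p of 0.0574, which was 0.018 with the GC trend removed. Psmd14 rose with both hairpins, to 137, 157 and 158 CPM with sh6 and 134, 127 and 139 with sh5 from 93.2, 89.7 and 98.1 in nt (0.69 ± 0.08 and 0.51 ± 0.08). The smallest rise with sh6 was that of the lid gene Psmd6, with 119, 118 and 122 CPM against 99.2, 95.6 and 102 (0.27 ± 0.07).

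The largest rises with sh5 were those of Psma3, at 126, 113 and 179 CPM against 87.6, 80.8 and 85.5 in nt (0.72 ± 0.15, adjusted p = 0.00507), and the lid gene Psmd12, at 94.7, 94 and 138 against 73.9, 68.8 and 71.3 (0.61 ± 0.14, adjusted p = 0.00727). In both, sh5 replicate 3 stood well above the other 2 libraries, and no sh5 library overlapped nt. Once the GC trend was removed, Psma3 rose by 0.31 and Psmd12 by 0.38, and the largest rise was that of Psma7 (0.84, adjusted p = 0.0328). Psmc1, an ATPase, was lower at 108, 112 and 80.5 CPM against 123, 130 and 131 (-0.35 ± 0.12, adjusted p = 0.045), and Psmd13 was higher at 119, 115 and 119 against 99.4, 93.9 and 99.2 (0.27 ± 0.07).

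Library sh5 replicate 3 stood apart in base composition. Its levels, relative to the mean of its experiment, followed exonic GC content with a Spearman correlation of -0.63 across 13320 genes, against -0.30 and -0.22 for the other sh5 libraries and 0.235 to 0.461 for nt. Over all genes the log2 fold change of sh5 followed GC with -0.64, and over the 34 members with -0.64 as well, while for sh6 these were -0.11 and 0.15. With the GC trend removed, sh5 gave 18 members rising and 2 falling with a median of 0.24. In the same setting sh6 gave 30 rising and 1 falling with a median of 0.56. Over all 13320 genes in that fit, 3494 were called with sh5 and 7712 with sh6, in either direction. After this correction Psmb2, Psmb3, Psmb4 and Psmb5 of the beta ring were among those that rose with sh5, Psma1 (adjusted p = 0.314), Psma2 (adjusted p = 0.123), Psma6 (adjusted p = 0.127) and Psmd10 (adjusted p = 0.594) no longer did, and Psma4 fell (-0.53).

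The difference between the Atf3 hairpins was tested directly. Members higher with sh6 than with sh5 numbered 20, and 2 were lower (Psma1 and Psmd5), where 25.9% of all genes were higher and 26.6% lower, and the median difference was 0.38. Psmc1 held 225, 201 and 184 CPM with sh6, above all sh5 libraries, a difference of 1.02 ± 0.12 (adjusted p = 7.41e-05), and Psmd8 differed by 1.06 ± 0.08. Leaving out sh5 replicate 3 raised the count to 29 higher and 2 lower. Calls over all genes rose too, from 7013 of 13345 to 8070 of 13513.

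Cell type markers also differed in sh6. The 7 fibroblast markers, all present in every group, summed to 13340 to 14320 CPM with sh6, 21100 to 33640 with sh5 and 34850 to 36680 in nt. With sh6 5 of 7 fell and 0 rose, while with sh5 3 of 7 rose and 0 fell. The 6 skeletal muscle markers summed to 197 to 217 CPM with sh6, 14.4 to 17.4 with sh5 and 37.5 to 38.8 in nt, with 2 of the 3 tested rising (Acta1 and Mylpf) and 1 falling (Des), and with Myog at 0 in all sh6 libraries. Macrophage markers summed to 13.5 to 13.9 CPM with sh6 and 15.6 to 17.1 in nt, with Adgre1 and C1qa at 0 in sh6. Their part in the sh6 result was not tested.

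Psmc6 moved in different directions between manipulations, falling in E2f4 OE by 1.01 on the log2 scale and rising by 0.55 ± 0.09 with Atf3 sh5 and by 0.73 ± 0.09 with sh6, the latter 2 against the same nt libraries. Once the GC trend was removed these differences were -0.37 in E2f4 OE, 0.20 with sh5 and 0.67 with sh6, and each still passed.

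The other genes of the pathway were followed in 7 lists with 34 genes, covering immunoproteasome subunits, activators and the inhibitor, 20S assembly chaperones, 19S-associated proteins, control of subunit transcription, ubiquitin with its activation, and shuttle receptors. From P1 to P7, 9 rose and 8 fell, where 30.5% of all genes tested rose and 31.9% fell. From P3 to P7, 6 rose and 11 fell, where 24.8% of all genes rose and 26.5% fell. In E2f4 OE 17 rose and 4 fell (28.9% and 28.2% of all genes). In E2f4 sh1 5 rose and 2 fell of 33 tested, where 17.8% of all genes changed. Tead1 sh3 gave 7 rising and 5 falling of 33 (17.6% and 17.7% of all genes). For sh4, 3 rose and 7 fell of 33 (14.4% and 14.7%). Atf3 sh5 gave 7 rising and 4 falling (17.7% and 18.1%), and sh6 gave 15 rising and 6 falling (23.8% and 26.0%). Over all genes the log2 fold change followed exonic GC content with 0.56 in E2f4 OE and -0.64 in Atf3 sh5. For the genes of these lists, values with the GC trend removed are not given here.

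Of the 3 immunoproteasome genes 2 fell from P1 to P7. Psmb8 and Psmb9, whose products replace Psmb5 and Psmb6 in the interferon-induced core, fell by 2.80 and by 2.74 on the log2 scale, and Psmb10, which replaces Psmb7, did not pass (-0.21 ± 0.17). Psmb8 had 22.2 to 32.8 CPM at P1, 9.73 to 15.3 at P3, 7.95 to 12.7 at P5 and 2.62 to 5.496 at P7. Psmb9 was very low throughout, with 1.05 to 2.11 CPM at P1 and 0.148 to 0.458 at P7. Psmb8 is highly expressed in leukocytes, and macrophage markers fell over the same interval, as given above, and their part in the result was not tested. Psmb8 rose in E2f4 OE (2.04 ± 0.30), E2f4 sh1 (1.93 ± 0.28), Tead1 sh3 (2.15 ± 0.27) and Tead1 sh4 (1.16 ± 0.29), from levels of 0.694 to 3.11 CPM in the controls. Of these groups macrophage markers were higher than in the control in E2f4 sh1, as given above, and in E2f4 OE they summed to 8.65 to 9.99 CPM against 9.13 to 9.16. Psmb8 fell with Atf3 sh6 (-1.45 ± 0.34). With sh6, where 27 members rose, Psmb9 (-1.82 ± 0.43) and the genes of the 11S activator, Psme1 (-0.82 ± 0.16) and Psme2 (-0.88 ± 0.12), fell as well, while Psme3, which encodes the nuclear activator, rose (0.64 ± 0.07). For Psmb9 the sh6 libraries held only 0.240 to 0.407 CPM against 0.693 to 1.61 in nt. Psme4, the gene of the activator PA200, fell in E2f4 OE (-1.16 ± 0.13), and of the list of activators and the inhibitor Psmf1 rose from P1 to P7 (0.36 ± 0.09) while Psme3 and Psme4 fell.

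Among the 5 assembly chaperones of the 20S core, Pomp rose from P1 to P7 (0.54 ± 0.11) and with both Atf3 hairpins (0.39 ± 0.08 and 0.43 ± 0.08). Psmg3 rose with sh6 (0.86 ± 0.24), and Psmg3 and Psmg4 in E2f4 OE. Of the 6 proteins that bind the 19S particle, the deubiquitinase genes Uchl5 (1.196 ± 0.164) and Usp14 (0.91 ± 0.13) rose with sh6 and also with sh5 (0.54 ± 0.16 and 0.60 ± 0.13), while Uchl5 fell from P1 to P7 by 1.04 on the log2 scale. In the list of ubiquitin and its activation, the ubiquitin gene Ubb rose from P1 to P7 by 0.67 ± 0.10 and Uba1, which encodes the activating enzyme, by 0.20 ± 0.07. Of the 5 shuttle receptor genes, which carry ubiquitinated proteins to the proteasome, Ubqln4 fell from P1 to P7 (-0.58 ± 0.08) and Rad23b fell with sh6 (-0.92 ± 0.06).

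Nfe2l1, the transcription factor gene for the proteasome recovery response, rose from P1 to P7 (0.88 ± 0.09, adjusted p = 4.21e-08), with E2f4 sh1 (0.27 ± 0.08) and with Tead1 sh3 and sh4 (0.40 ± 0.04 and 0.34 ± 0.04), and fell with Atf3 sh5 (-0.63 ± 0.19). With sh5 it held 265, 294 and 153 CPM against 337, 387 and 374 in nt. The lowest was sh5 replicate 3, the library that stood apart in base composition. Nfe2l1 did not pass with sh6 (-0.22 ± 0.19), where most members rose. Of its partners, Ddi2, the protease that releases the factor, fell from P1 to P7 (-0.53 ± 0.16) and rose in E2f4 OE (0.76 ± 0.14), and Vcp rose with sh6 (0.57 ± 0.07).

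Sequence windows of 300 bases, from 250 before to 50 after a start site, were taken from RefSeq (GRCm38.p6, the assembly of the mm10 build used in the study) for 29 of the 36 members, 31 windows in all. Psma8, Psmb1, Psmb2, Psmb7, Psmc3, Psmd3 and Psmd7 had none. Short motifs were searched on both strands. Letters of E2F sites, in the 4 forms TTCCCGC, then TTCGCGC, then TTGCCGC, then TTGGCGC, stood in 6 of 31 windows (19.4%) and in 9.57% of all 32817 windows. TGACTCA, the AP-1 site, stood in 1 window (3.23%, against 5.20% of all), and TGACGTCA, the cyclic AMP response element, in 0 (against 1.79%). TGACNNNGC, letters of the antioxidant response element bound by the Nfe2l1 and Nfe2l2 products, stood in 5 windows (16.1% against 12.4%), and GGAATG, letters of TEAD sites, in 3 (9.68% against 14.7%). CCGGAAG, an ETS-type site, stood in 11 windows of 10 genes (35.5% against 8.86%), GGGCGG, an Sp1-type site, in 18 (58.1% against 35.6%) and CCAAT in 12 (38.7% against 37.4%). TGACTCA and TGACNNNGC can overlap in a sequence.

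Stretches are shown for the E2F letters, because the study manipulated E2f4, and for the AP-1 letters, because it manipulated Atf3. The letters of TEAD sites, in the windows of Psmb5, Psmd8 and Psmd9, are not shown, although Tead1 was manipulated too. An E2F match in another Psmc2 window lay after the start site and is also not shown. Each is written 5′ to 3′ on the gene's own strand with the match in capitals, and a match on the opposite strand appears as its reverse complement. Psma5 is at chr3:108256810-108256836 (plus), Psmc2 at chr5:21785234-21785260 (plus), Psmc4 at chr7:28050152-28050178 (minus), Psma1 at chr7:114276319-114276345 (minus), Psmd12 at chr11:107479456-107479482 (plus) and Psmd9 at chr5:123228054-123228080 (plus).
Psma5, E2F letters: gggcaggcgaGCGCGAAgtaagagacc
Psmc2, E2F letters: ccacggcctcGCGCCAAtgcgcgcggc
Psmc4, E2F letters: ggctaagagtTTCCCGCccttcctgtt
Psma1, E2F letters: ccgagagttgGCGGGAAtctgcaatcc
Psmd12, E2F letters: cacggggtccTTCCCGCgggcttccga
Psmd9, AP-1 letters: aaagtggaaaTGAGTCAggataaagtg
Of these genes Psmc4 rose in E2f4 OE (0.56 ± 0.11), Psma5 (0.18 ± 0.11), Psmc2 (0.02 ± 0.10), Psma1 (-0.15 ± 0.10) and Psmd12 (-0.13 ± 0.11) did not pass there, and none of the 5 passed with E2f4 sh1. With the GC trend removed, Psma1 rose in E2f4 OE (0.34, adjusted p = 0.00545). Psmd9 passed with neither Atf3 hairpin (-0.32 ± 0.16 with sh5, 0.26 ± 0.16 with sh6). A match is a description of the letters only.

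The antioxidant response element letters are shown for the 2 members with a match that the results above turn on most, the catalytic gene Psmb5, at chr14:54618024-54618052 (minus), and Psmc6, at chr14:45329587-45329615 (plus).
Psmb5: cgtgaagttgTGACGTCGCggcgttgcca
Psmc6: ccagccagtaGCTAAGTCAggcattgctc
The other windows with these letters were those of Psmb6, Psmd9 and Psmd12, and where no match was found it says only that the letters are not in the window.

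ATAC-seq peaks lay at the start sites of 34 members in all 13 samples. The fold enrichment of the strongest peak within 1 kb of a start site, the peak height over the local background as MACS2 reported it for each sample, ranged over these genes from 5.72 to 26.1. Differences were tested with limma on log2 values centred on each sample's median, for 14694 genes with a peak in every sample. From P1 to P7 limma called 0 of 34 members at an adjusted p under 0.05, where 21.0% of all genes tested were called, and 4 had an unadjusted p under 0.05. When peaks were instead ranked within each sample by their −log10 p, 2 members were higher and 5 lower at P7. The share of all genes called in that ranking is not given here. With fold enrichment the smallest adjusted p was 0.0533, that of Psmb3 (0.24 ± 0.08). Member differences ran from -0.25 for Psmb7 to 0.24 for Psmb3, with a median of 0.03 beside 0.01 over all genes.

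Psmb5, whose RNA rose from P3 to P7, had a promoter fold enrichment of 9.74, 7.90, 9.71 and 8.76 at P1, 9.63, 9.09 and 8.62 at P3, 9.79, 8.69 and 8.12 at P5 and 8.65, 8.63 and 12.1 at P7. The P1 and P7 samples overlapped (-0.05 ± 0.13). Psmd8, whose RNA rose most, measured -0.16 ± 0.08 from P1 to P7, and Psmd10 0.04 ± 0.08. The members with unadjusted p under 0.05 were Psmb3 and Psmd3 (0.14 ± 0.06), which were higher, and Psmb7 and Psmd12 (-0.18 ± 0.08), which were lower.

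**Figure D5:**
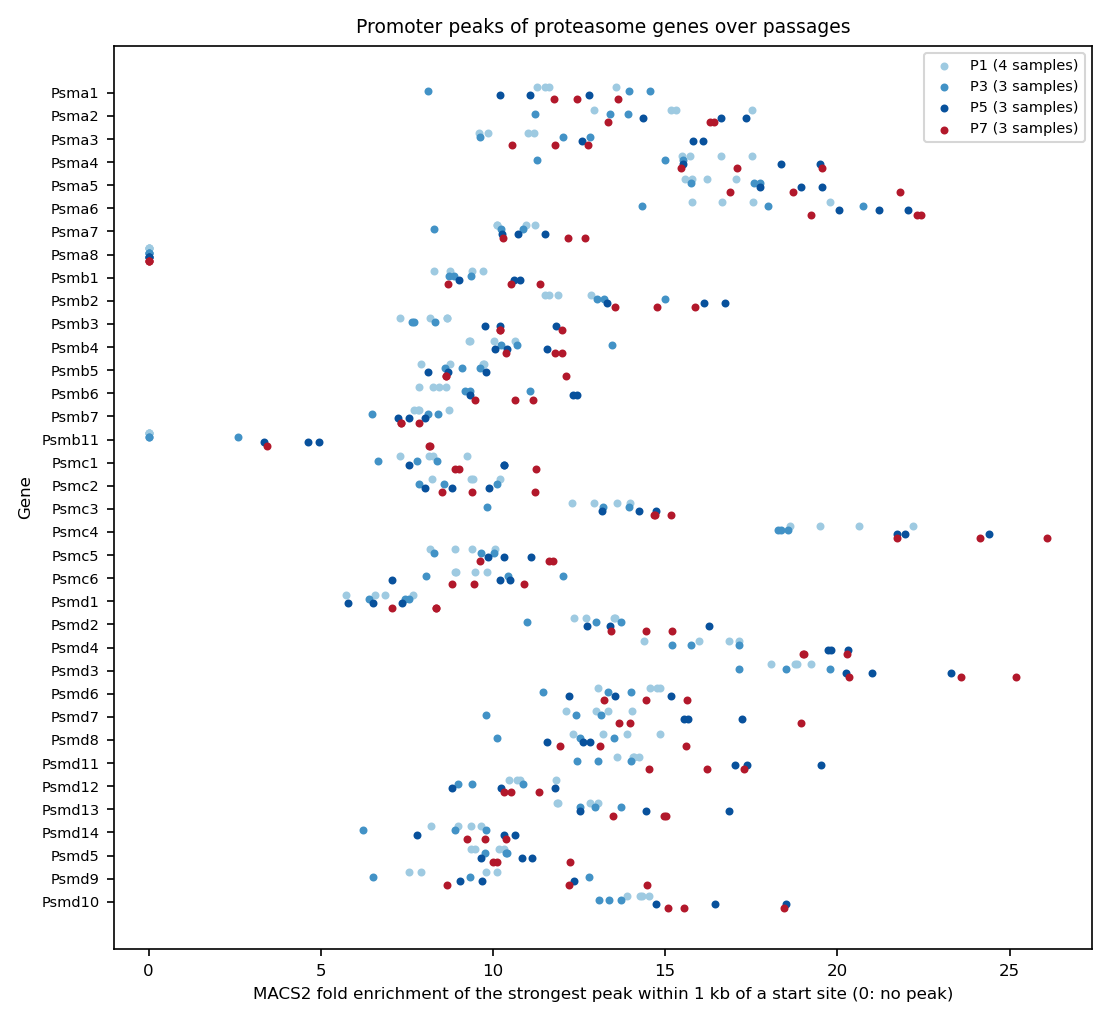
MACS2 fold enrichment of the strongest ATAC-seq peak within 1 kb of a start site for each of 36 member genes in 13 samples (points, coloured by passage), with 0 where no peak was called. Peaks of 34 genes were present in every sample between 5.72 and 26.1, Psma8 had none, and Psmb11 shows peaks at the later passages.

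Psma8 and Psmb11, which did not pass the filter on low counts, differed from these. Psma8 had no peak at its start site in any sample. Psmb11 had none in the 4 P1 samples or in 2 of 3 P3 samples, a peak of 2.59 in the remaining P3 sample, peaks of 4.61, 3.34 and 4.95 at P5 and of 3.43, 8.15 and 8.16 at P7, while its RNA stayed at 0 to 4 counts per library. Psmb11 lies at chr14:54625310-54629556 (plus), next to Psmb5 at chr14:54614120-54617995 (minus) in the RefSeq annotation of GRCm38.p6. The pattern of no peak in any P1 sample and a peak in all P5 and P7 samples was found in 42 of 18053 genes with a promoter peak in at least 1 sample (0.233%), and it was chosen for description after its values were seen. A sample without a peak shows only that none was called at its depth.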

How the data were processed

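RNA was sequenced in 44 libraries and accessible chromatin in 13 samples. For RNA the authors used Trimmomatic 0.39 for trimming and HISAT2 2.2.1 for alignment (mm10) and deposited counts per gene, made by HTSeq 0.12.4 without regard to strand. For ATAC-seq the authors called peaks per sample with MACS2 and deposited narrowPeak files, whose fold enrichment (a ratio over local background) and −log10 p were used here. Bisulfite data were not analysed here.

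Rows that name no gene, present in 28 count files and up to 16.8% of counts, were left out. Each experiment was fitted separately with edgeR 4.0.16 (filterByExpr, TMM, quasi-likelihood test, Benjamini-Hochberg adjustment over all genes tested). The passage series was 1 fit of 16 libraries, and each nt group shared a fit with its hairpins. Peak fold enrichments were tested with limma 3.58.1. DESeq2 1.42.0, other filters and scalings, a replicate block and leaving out each library were tried, and, chosen after seeing the data, a lowess trend on exonic GC content removed per library. Fits were tested on simulated data. Depth was 9147324 to 27552949 counts. Members were given in every library when they were the catalytic genes, Psmd14, or the 2 highest and 2 lowest that passed the test in a main comparison; others are given by counts and ranges or named as examples. The members and gene lists were chosen with earlier results of these data known.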

Additional observations from a re-analysis of the deposited data

Results flagged for a closer look

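Direct tests between hairpins against the same gene brought these results here. Tead1 sh4 differed from sh3 in 2 members, one of them Psmb1 (-0.18 ± 0.05 on the log2 scale, edgeR adjusted p = 0.019). Atf3 sh6 differed from sh5 in 22 members. The named ones were Psmc1 (1.02), Psmd8 (1.06), Psmb5 (0.67), Psma6 (0.57), Psmb6 (0.53) and Psmd13 (0.29), which were higher with sh6, and Psma1 (-0.75), which was lower. Because sh5 replicate 3 had the strongest relation to GC content of its experiment, the count without it (29 higher and 2 lower) and the count with the GC trend removed (27 higher and 2 lower) bear on this difference. Over all genes 8070 of 13513 were called without that library and 7428 of 13320 with the GC trend removed, against 7013 of 13345. The part of residual Atf3 RNA was not tested.

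One sample stood far from the others of its group. The promoter peak of Psmb7 had a fold enrichment of 8.74 in P1 replicate 4 and 7.69 to 7.86 in the other 3 P1 samples. It was the only one of 44 groups checked in this way, and chance marks about 1 in 20.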

How the results depend on the processing

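With all libraries kept, most counts of members moved by less than 1.5 times. Exceptions were P3 against P1, with 4 members by DESeq2 (2 higher, 2 lower) and 11 (4 higher, 7 lower) when only those libraries were fitted, P5 against P3, with 2 after removal of the GC trend, E2f4 sh1, with 7 without a filter on low counts and 7 with at least 10 counts required in every library, Tead1 sh4 against sh3, with 1 without that filter, and Atf3 sh5, with 20 after removal of the GC trend. For promoter peaks, 7 members passed when peaks were ranked by −log10 p within their sample and 1 passed with a window of 500 bases, against 0. Removal of the GC trend turned the sign of 5 members that had passed, in E2f4 OE Psmd14 (-0.46 to 0.0347), Psma3 (-0.40 to 0.39), Psma7 (0.48 to -0.03) and Psmc3 (0.35 to -0.01), and from P3 to P7 Psma1 (-0.22 to 0.02). The cause was not tested.

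Leaving out one library at a time gave 1 to 4 members from P1 to P3, 2 to 6 from P3 to P5, 0 to 1 from P5 to P7, 7 to 11 from P1 to P7, 7 to 12 from P3 to P7, 12 to 23 in E2f4 OE, 0 to 12 in E2f4 sh1, 5 to 10 in Tead1 sh3 (5 without nt replicate 3), 3 to 5 in Tead1 sh4 (3 without sh4 replicate 3), 0 to 2 between Tead1 hairpins, 8 to 17 in Atf3 sh5 (8 without nt replicate 2), 25 to 32 in Atf3 sh6, 20 to 31 between Atf3 hairpins and 0 to 2 for promoter peaks.

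The labels do not say that a shared replicate number marks a shared culture, and the deviations of same-numbered libraries did not settle it. They correlated from -0.262 to 0.276 in the passage series (11 of 24 pairs over 0.1), at 0.142 in E2f4 OE and its control, and from -0.158 to 0.137 in the Atf3 experiment, so pairing was not assumed. With the replicate number as a block, 1 member was called from P1 to P3, and every other count of members stayed within 1.5 times. Of the 1936 values for named genes under all alternatives, 1809 kept their direction and side of the threshold, 84 lost the call and 42 gained one. The SE of a member's difference was 0.04 to 0.18, which limits the shifts that could be detected.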
